A study of Mus musculus with 8 samples.

Results

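CCR2-/- and wild-type T cells of the CD45RBlow subset were compared on 4 of the 8 single-colour arrays of the series, 2 arrays for each genotype. The arrays were chosen by their sample titles. The other 4 arrays, of CD45RBhigh cells (2 wild type and 2 CCR2-/-), entered the linear model for the estimate of the spread and for the test of whether the genotype difference was another one in that subset. Each sample was made of CD4+CD25- T cells sorted by FACS from spleens of C57BL/6 mice aged 6 to 8 weeks, either wt or CCR2-/-, and stimulated on plates coated with anti-CD3 and anti-CD28. The stimulation lasted 48 h by the protocols of the samples and 2 h by the design text, and which one applies is not settled. In each group 1 title ends in the number 2 and the other has no number, which was read as replicate 1. The labels give neither the deleted part of Ccr2 nor the sex and number of the mice, and they do not say how many animals each replicate stands for. The sex-linked genes given below differ between the replicate numbers in both genotypes, so the arrays of a group were not made from 1 common RNA sample.

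CCR2 is a G protein-coupled receptor for the chemokine CCL2 and its relatives. It is best known for drawing monocytes out of the bone marrow and is also carried by memory and effector T cells. CD45RB is a splice isoform of the phosphatase CD45. Naive CD4 T cells carry much of it and antigen-experienced cells carry less, so the CD45RBlow gate holds memory, effector and some regulatory cells, which make most of the helper cytokines after stimulation.

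On the 4 CD45RBlow arrays the T cell genes Cd4 and Cd3e ranked at the 98.2nd percentile of all probe sets or above, up to the 99.7th. Most defining markers of other cells were dim: Cd8a lay between the 33.6th and 42.2nd percentile, Cd79a of B cells between the 1.56th and 6.15th, Lyz2 of macrophages between the 1.31st and 12.5th, and Ncr1 of NK cells between the 18.5th and 36.0th, while Ighm reached the 90.5th to 92.1st and Cd8b1, the other CD8 chain, the 70.5th to 73.3rd. The arrays of a group correlated across probe sets at r = 0.994 in wild type and r = 0.986 in CCR2-/-. The replicate numbers differed in sex-linked genes. Xist, which females express from the inactive X, read 4.52 and 5.02 on the replicate 1 arrays of wild type and CCR2-/- and 11.74 and 11.89 on the replicate 2 arrays, all on the log2 scale. Uty, on the Y chromosome, read 9.41 and 9.40 on the replicate 1 arrays and 8.59 and 8.19 on the replicate 2 arrays. Both genotypes had 1 array with each number, and the main fit counts such a difference as spread within the groups.

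Loss of CCR2 left no single gene past the test in CD45RBlow cells. Limma called 0 of 13508 tested genes at an adjusted p under 0.05 (0.0%), and the lowest adjusted p was 0.9998. At an unadjusted p under 0.05 there were 298 genes (2.21%), 189 higher and 109 lower in CCR2-/-, where 675.4 would be met by chance. A fit that blocked on the replicate number also called 0 after adjustment and had 587 before it (4.35%). The 298 became 98 without wild-type replicate 1, 148 without CCR2-/- replicate 2 and 1240 without CCR2-/- replicate 1, with 0 called after adjustment in each case. The sentences below therefore give single genes by their level on each array, their difference and its 95% interval, and every adjusted p of this comparison was 0.9998 or higher in the main fit.

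The differences themselves were small for most genes. The middle 90% of genes, between the 5th and the 95th percentile, had log2 differences (CCR2-/- minus wild type) from -0.23 to 0.31, with a median of 0.026. For 12877 genes (95.3%) the 95% interval of the difference lay within 1 log2 unit of 0, that is within a doubling or halving. The difference was at least 1 log2 unit for 8 genes: Erdr1, Tmem181c-ps, Fyco1 and Scd1 were higher in CCR2-/-, and Il9, Ifng, Timp1 and Csf2 were lower. In 3 upwards (Erdr1, Tmem181c-ps and Fyco1) and 3 downwards (Ifng, Timp1 and Csf2) the groups also did not overlap, 0.0222% of tested genes each way. The direction that most genes took rested on the scaling of the arrays. As deposited, 57.4% of genes were above 0, and after centring each array on its median 43.6% were. Among genes whose groups did not overlap, 2531 were higher and 1591 lower as deposited (61.4% higher), and 1407 and 2881 after centring (32.8% higher). Differences moved by at most 0.048 between the scalings, so list medians are given below under both.

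Agreement between the replicate numbers was low over the whole array. The difference of replicate 1 correlated with that of replicate 2 at r = 0.103 across the 13508 genes, which are not independent of each other. The replicate 2 differences of CD45RBlow and CD45RBhigh cells, which share a replicate number, correlated at r = 0.412, and those of replicate 1 at r = 0.122. These values are descriptions of the arrays and carry no test. A few genes were far from 0 on both axes all the same, as the plot of one replicate number against the other shows.

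**Figure D1:**
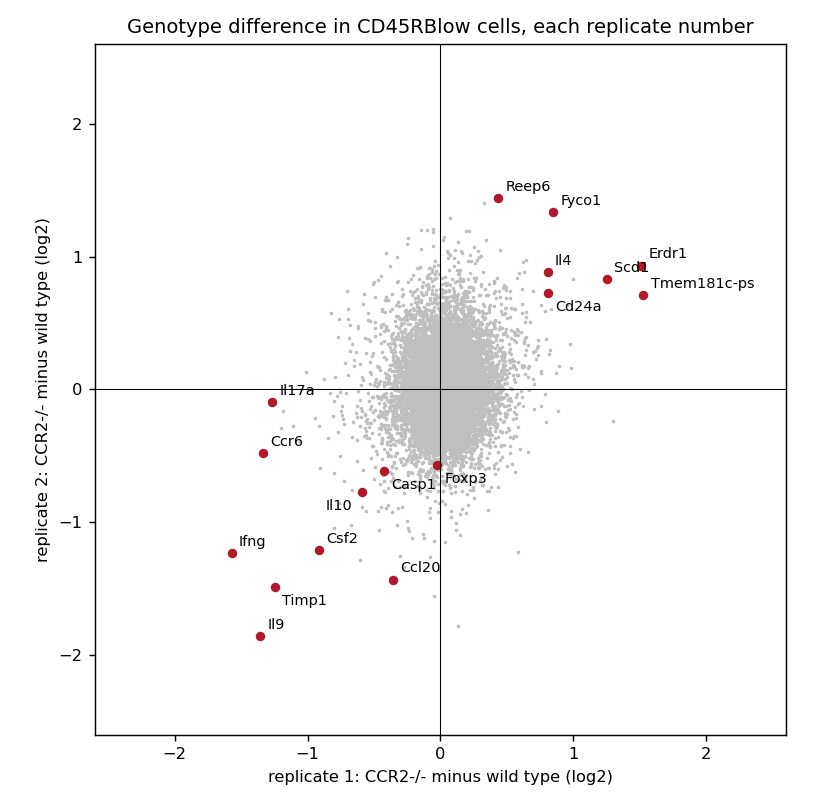
Log2 difference between CCR2-/- and wild-type CD45RBlow cells for replicate 1 (x axis) and replicate 2 (y axis); each grey point is 1 of 13508 tested genes and red points are named genes. Most points lie in a round cloud near 0 (r = 0.103), with Timp1, Ifng, Il9 and Csf2 far down and left and Fyco1, Erdr1, Scd1 and Il4 up and right.

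Timp1, a secreted inhibitor of matrix metalloproteinases on the X chromosome, had the smallest p. It read 6.49 and 7.002 on the wild-type arrays and 5.24 and 5.52 on the CCR2-/- arrays. The groups did not overlap, and both CCR2-/- arrays were well below the lower wild-type one. The difference was -1.37 (95% interval -1.80 to -0.93), or 2.58-fold lower in CCR2-/- cells. By replicate number it was -1.25 and -1.49. In CD45RBhigh cells Timp1 was dim in both genotypes and differed by -0.07. Among the 17 tested of 31 listed matrix proteases and inhibitors, Timp1 was the one with an unadjusted p under 0.05. The median of that list was -0.07 as deposited, -0.11 after centring and -0.01 without wild-type replicate 1. Mmp10, the next by p, differed by -0.16.

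Cd24a, a heavily glycosylated surface protein that falls as T cells mature, read 8.34 and 8.26 in wild type and 9.16 and 8.98 in CCR2-/-. Both CCR2-/- arrays lay above both wild-type arrays, and the difference was 0.77 (0.43 to 1.11). A dimmer Cd24a probe set differed by 0.51. Mlh3, a DNA mismatch repair protein, read 7.39 and 7.38 against 7.85 and 7.94, a difference of 0.52 with little spread in either group. Rab6b, a small GTPase of Golgi transport, differed by 0.55, Bex1 by 0.61, Zbed5 by -0.45 and the pseudogene Smarca5-ps by 0.48. Each of these had groups that did not overlap, as did 30.5% of all tested genes in one direction or the other. Rab6b and Bex1 were also higher in CCR2-/- CD45RBhigh cells, by 0.52 and 0.49. Rab6b lies on the chromosome of Ccr2, and Bex1 was dim, from 4.67 to 5.50 on the CD45RBlow arrays.

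Erdr1 was the largest difference upwards among genes with separate groups. It read 10.24 and 10.96 in wild type and 11.75 and 11.89 in CCR2-/-, a difference of 1.22 (0.39 to 2.05). A second Erdr1 probe set differed by the same 1.22. Tmem181c-ps, a pseudogene with close relatives, read 5.39 and 5.65 against 6.92 and 6.36, a difference of 1.12. Both genes were also higher in CCR2-/- CD45RBhigh cells, by 1.39 and 1.53. Probes of genes with near-identical copies can take up signal of those copies, so these values are uncertain.

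The levels of 12 genes on each array, in both subsets, are plotted with the replicate numbers marked.

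**Figure D2:**
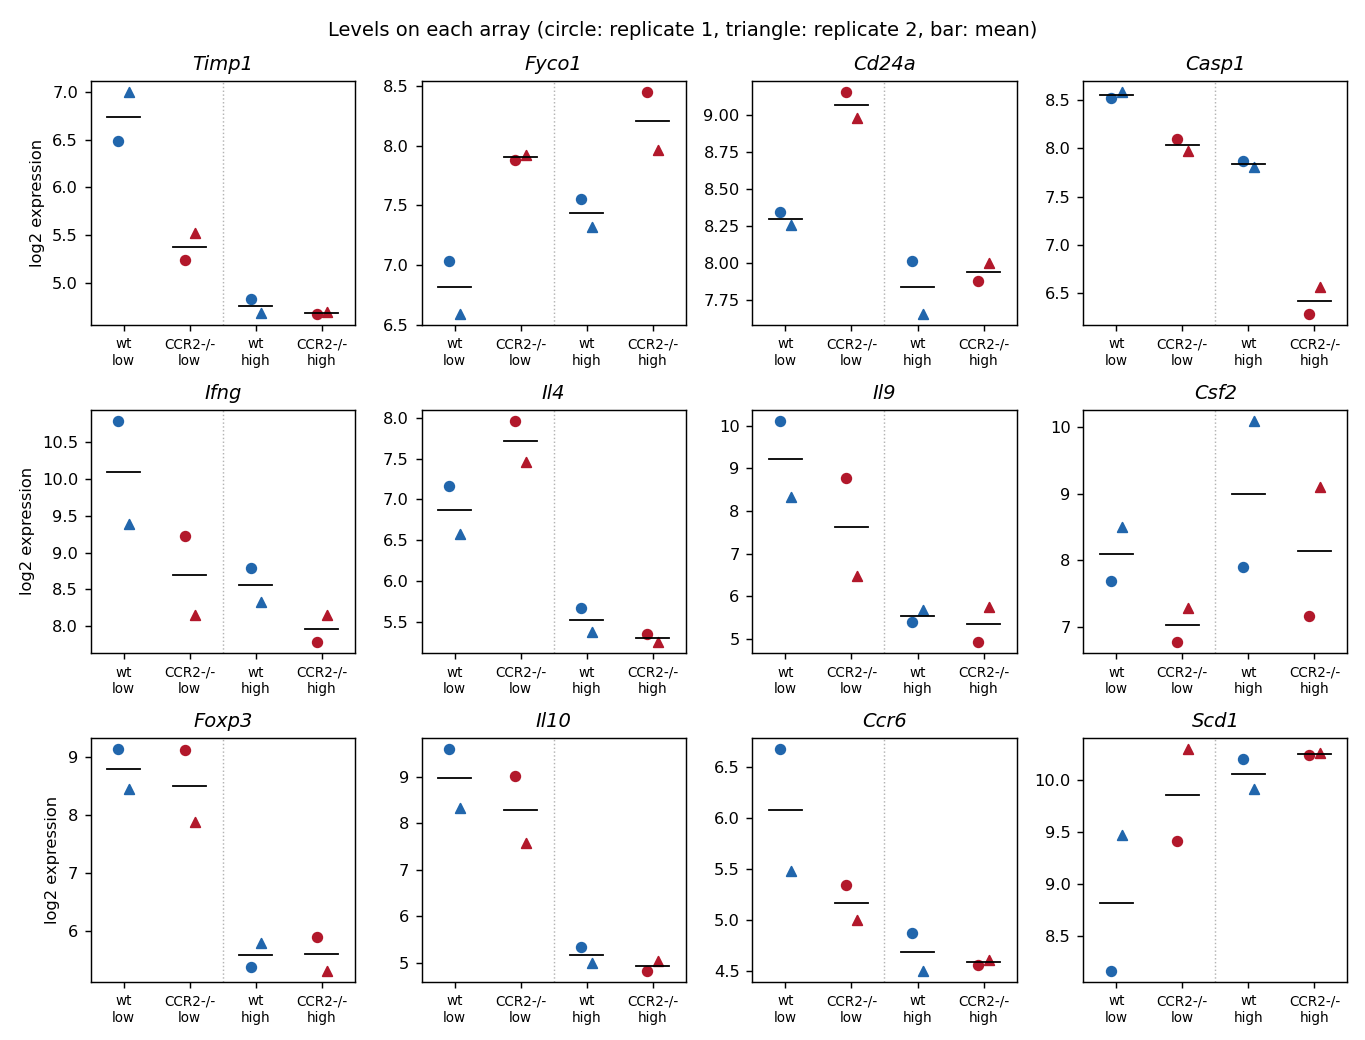
Log2 expression of 12 genes (y axis, a scale for each gene) on the 8 arrays, grouped by genotype and CD45RB subset (x axis); circles are replicate 1, triangles replicate 2, blue wild type, red CCR2-/-, and bars the mean of 2 arrays. In CD45RBlow cells the genotypes are apart for Timp1, Fyco1, Cd24a, Casp1, Ifng, Il4, Csf2 and Ccr6, and they overlap for Il9, Foxp3, Il10 and Scd1.

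Cytokine genes were mostly lower in CCR2-/- CD45RBlow cells, with Il4 the clearest exception, and none passed the test. Of 31 listed, 30 were tested, and 23 were below 0 and 7 above (23.3%, against 57.4% of all genes). With both replicate numbers 18 were lower, against 19.6% of all genes. The groups did not overlap in 10 of 30 downwards (33.3%, against 11.8% of all tested genes) and in 2 upwards (6.67%, against 18.7%). After centring these counts were 11 and 1, against 21.3% and 10.4% of all genes. The list median was -0.16 as deposited and -0.21 after centring, and it ran from -0.255 to -0.097 as single arrays were left out. In CD45RBhigh cells the cytokine median was -0.18 as deposited, so the lean was not particular to CD45RBlow cells. At an unadjusted p under 0.05 there were 3 cytokines, Ifng, Il5 and Il4.

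Ifng, the Th1 cytokine that activates macrophages, read 10.80 and 9.39 in wild type and 9.23 and 8.16 in CCR2-/-. The 4 values formed an order without overlap, but replicate 2 of wild type was just above replicate 1 of CCR2-/-. The difference was -1.40 (-2.56 to -0.24), or 2.64-fold lower. By replicate number it was -1.57 and -1.24. Tbx21, the Th1 lineage factor that drives Ifng, read 10.64 and 10.74 against 10.75 and 10.60 and differed by -0.02 (-0.63 to 0.60). Cxcr3, a Th1 homing receptor, differed by -0.27. Over 14 tested of 17 listed Th1 genes the median was -0.05 as deposited and -0.10 after centring, with 3 lower (21.4%, against 11.8% of all genes) and 0 higher without overlap. After centring 4 were lower, against 21.3% of all genes.

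Among the Th2 cytokines, Il4 and Il5 went opposite ways. Il4, which drives the Th2 fate, read 7.16 and 6.58 in wild type and 7.97 and 7.46 in CCR2-/-. Both CCR2-/- arrays were above both wild-type arrays, by 0.81 and 0.88 for the replicate numbers. The difference was 0.85 (0.29 to 1.40), a 1.80-fold higher level. With the replicate number as a block the interval was 0.51 to 1.18, and the gene was not called either. Il5, a growth factor of eosinophils, read 5.62 and 5.49 against 5.23 and 4.62, a difference of -0.63 (-1.08 to -0.18). It was dim, and its value on CCR2-/- replicate 2 lay below the median of that array, 5.05.

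Il13, which acts on epithelium and shares the Il4 locus, was bright and close between genotypes, at 10.22 and 10.17 against 10.06 and 9.82. Il9, a mast cell growth factor, had the largest difference of any tested gene at -1.61, but with wide spread (-3.47 to 0.25). It read 10.12 and 8.34 in wild type and 8.76 and 6.48 in CCR2-/-, lower in CCR2-/- for both numbers (-1.35 and -1.86) while the groups overlapped. Gata3, the Th2 lineage factor, read 9.73 and 9.88 against 9.97 and 10.04, a difference of 0.20. Nfil3, a transcription factor also listed with Th2 genes, read 7.42 and 7.76 against 8.05 and 8.65, a difference of 0.76 (-0.01 to 1.52). The 13 tested of 15 listed Th2 genes had a median of -0.04 as deposited and -0.09 after centring, and 0.05 without CCR2-/- replicate 2.

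The Th17 list had the lowest median of the pathway lists, at -0.32 as deposited and -0.36 after centring over 11 tested of 13 listed genes. It rested in part on 1 array: without wild-type replicate 1 the median was -0.10. Il17a, the name-giving cytokine, read 5.99 and 4.39 in wild type and 4.72 and 4.30 in CCR2-/-, so wild-type replicate 1 stood above the other 3 arrays, which were dim. Il17f read 6.17 and 4.88 against 4.97 and 4.58 and had the same shape. Ccr6, a homing receptor of Th17 cells for the chemokine CCL20, read 6.67 and 5.48 against 5.34 and 5.00. Its groups did not overlap and it differed by -0.91 (-1.73 to -0.09). Il23r differed by -0.32 at dim levels, from 4.53 to 5.15. Il22 read 5.50 and 5.96 against 5.43 and 6.43, with no common direction.

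Csf2, which encodes GM-CSF, read 7.69 and 8.50 in wild type and 6.78 and 7.28 in CCR2-/-, a difference of -1.06 (-2.95 to 0.82). A dimmer Csf2 probe set differed by -0.07. The groups did not overlap, but the spread estimated over all 8 arrays was wide. In CD45RBhigh cells replicate 2 was above replicate 1 in both genotypes, at 10.09 against 7.91 in wild type and 9.10 against 7.17 in CCR2-/-. With the replicate number as a block the Csf2 interval was -2.01 to -0.12, and the gene was not called after adjustment. Il2, the T cell growth factor, read 12.58 and 12.63 against 12.50 and 12.15, near the top of the array. Tnf read 11.71 and 11.62 against 11.58 and 11.26, and Lta 10.91 and 10.52 against 10.64 and 10.17. Il21, the cytokine of follicular helper cells, read 9.94 and 9.58 against 9.50 and 9.20, a difference of -0.41 whose interval (-2.65 to 1.84) was the widest of those given here. These 4 were lower in CCR2-/- with both replicate numbers, by amounts well inside their intervals.

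**Figure D3:**
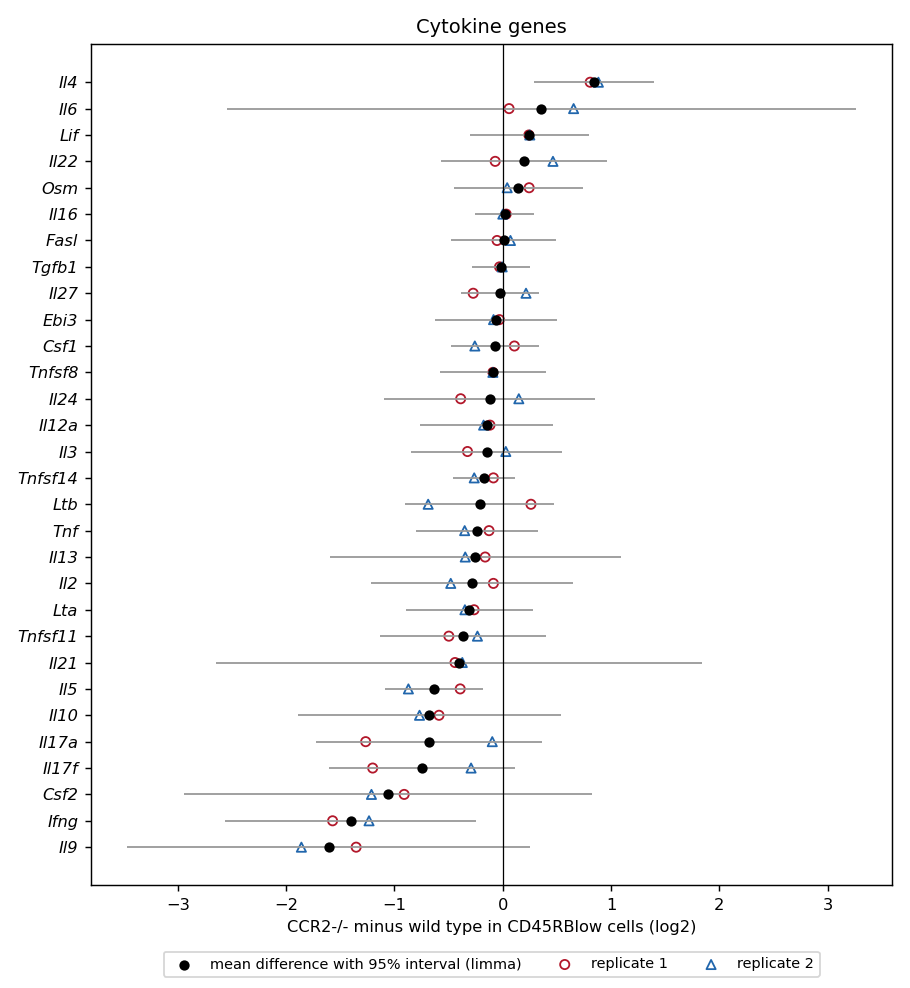
Log2 difference between CCR2-/- and wild-type CD45RBlow cells (x axis) for the 30 tested cytokine genes (y axis, ordered by the mean); black points with grey bars are limma's estimate and 95% interval, red circles replicate 1 and blue triangles replicate 2. Of the 30 means 23 are below 0, and the bars of Ifng, Il5 and Il4 do not cross 0.

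Follicular helper genes, which equip T cells to help B cells, were all below 0 among the 12 tested of 14 listed, with a median of -0.13 as deposited and -0.18 after centring. That median was -0.29 without CCR2-/- replicate 1 and -0.08 without CCR2-/- replicate 2. Over all genes 57.4% were above 0 as deposited. The groups did not overlap in 4 of the 12 as deposited (33.3%, against 11.8% of all genes downwards) and in 5 after centring (against 21.3%). Sostdc1, a secreted antagonist of BMP and Wnt signals, read 5.98 and 5.67 in wild type and 5.22 and 5.17 in CCR2-/-, a difference of -0.62 (-0.94 to -0.30). It was the one member with an unadjusted p under 0.05. Cxcr5, the follicle homing receptor, read 6.87 and 7.01 against 6.73 and 6.63. Bcl6, the lineage factor, read 7.05 and 7.25 against 6.87 and 7.17, and its groups overlapped.

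Regulatory T cell genes were mostly slightly lower in CCR2-/- CD45RBlow cells, with overlapping groups throughout. All 23 listed genes were tested, and 18 were below 0 and 5 above (21.7%, against 57.4% of all genes). For both replicate numbers 11 were lower and 3 higher, against 19.6% and 32.7% of all genes. In 0 of 23 did the groups stand apart in either direction as deposited (against 30.5% of all genes). After centring 2 stood lower (against 21.3%). The list median was -0.06 as deposited and -0.11 after centring. It turned to 0.03 without CCR2-/- replicate 2 and was -0.30 without wild-type replicate 2.

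Foxp3, which sets the regulatory T cell fate, read 9.14 and 8.44 in wild type and 9.11 and 7.87 in CCR2-/-. The replicate 1 arrays were nearly equal and replicate 2 of CCR2-/- was the lowest, so that the difference was -0.30 (-1.29 to 0.70). Il10, an anti-inflammatory cytokine, read 9.60 and 8.34 against 9.01 and 7.57, a difference of -0.68 (-1.89 to 0.53), with lower values in CCR2-/- for both numbers. Nt5e, the ectonucleotidase CD73, read 7.14 and 5.88 against 6.37 and 5.02, a difference of -0.81. Nrp1 differed by -0.42 and Itgb8, part of an integrin that frees active TGF-beta, by -0.17. For each of these genes replicate 1 was above replicate 2 in both genotypes, by more than the genotypes differed except for Nrp1. Il2ra, which encodes CD25 and against which the cells had been sorted before stimulation, read 12.43 to 12.47 on the 4 arrays. Maf, a factor that drives Il10 and Il4, differed by -0.13 and Il1r2, a decoy receptor for interleukin 1, by -0.54.

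Of 19 listed chemokine receptors, 12 passed the filter on low values, and 9 of these were below 0 as deposited. Under both scalings 3 were above 0, against 57.4% of all genes as deposited and 43.6% after centring. The list median was -0.06 as deposited and -0.11 after centring, and in CD45RBhigh cells it was -0.1 as deposited. The groups stood apart downwards in 3 of the 12 (against 11.8% of all genes), Ccr6 among them, and upwards in 1 (8.33%, against 18.7%) as deposited. After centring these counts were 3 and 1, against 21.3% and 10.4% of all genes. Ccr2 itself was near the dim end, at 4.61 and 4.52 in wild type and 5.15 and 4.70 in CCR2-/-, so the targeted gene did not read lower in the mutant (difference 0.36, -0.02 to 0.75). The probes may lie outside the deleted part, so these values do not check the genotype. Ccr4 read 10.71 and 10.65 against 10.74 and 10.55, and Ccr8, another Th2 receptor, 11.44 and 11.61 against 11.52 and 11.65. Ccr7, the lymph node homing receptor, read 10.80 and 11.22 against 10.81 and 11.17. The intervals of Ccr4, Ccr7 and Ccr8 lay within 0.61 log2 units of 0. Among 13 tested of 17 listed chemokine ligands the groups stood apart in 2 downwards (15.4%, against 11.8% of all genes) and 1 upwards (7.69%, against 18.7%) as deposited. After centring 2 stood lower and 0 higher, against 21.3% and 10.4% of all genes. Ccl20, the ligand of CCR6, read 8.30 and 7.34 against 7.95 and 5.90, a difference of -0.89 (-2.30 to 0.51), and Cxcl16 differed by -0.23.

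The neighbours of Ccr2 on chromosome 9 were followed because a targeted allele is carried with the chromosome around it. Fyco1, an adaptor that moves autophagosomes along microtubules, lies second from Ccr2 among the tested genes, with Cxcr6 between them. It read 7.03 and 6.59 in wild type and 7.88 and 7.92 in CCR2-/-. Both CCR2-/- arrays were well above both wild-type arrays. The difference was 1.09 (0.61 to 1.57), a 2.13-fold higher level. Fyco1 was also higher in CCR2-/- CD45RBhigh cells, by 0.77, and the difference between the subsets was 0.32 (-0.36 to 1.003). Cxcr6, a receptor of memory T cells, read 7.29 and 6.05 against 7.38 and 5.85, which followed the replicate number and not the genotype.

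Of 43 other chromosome 9 genes listed as near Ccr2, 27 were tested, and Fyco1 was the single member with an unadjusted p under 0.05. The list reaches beyond the nearest tested genes. Members such as Ccrl2, Nbeal2, Setd2 and Scap are not within 15 tested genes of Ccr2. The counts and median therefore do not describe only the DNA next to Ccr2. Groups of the 27 genes stood apart upwards in 7 and downwards in 3 (25.9% and 11.1%, against 18.7% and 11.8% of all genes). After centring these counts were 3 and 3, against 10.4% and 21.3% of all genes. The median was 0.05 as deposited, 0.002 after centring and -0.003 without wild-type replicate 1.

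**Figure D4:**
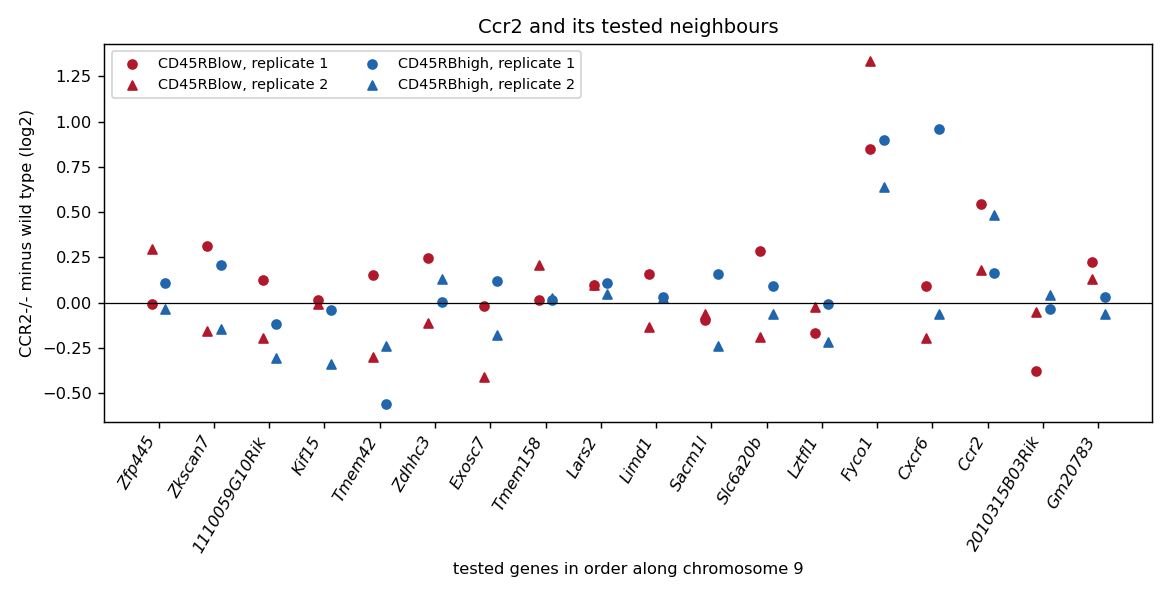
Log2 difference between CCR2-/- and wild type (y axis) for Ccr2 and its nearest tested genes in their order along chromosome 9 (x axis, order only); red is CD45RBlow, blue CD45RBhigh, circles replicate 1 and triangles replicate 2. All 4 values of Fyco1 lie above 0.6, and those of most other genes lie on both sides of 0.

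Casp1, the inflammasome protease that matures interleukin 1 and interleukin 18, read 8.52 and 8.59 in wild type and 8.10 and 7.98 in CCR2-/-. The groups did not overlap and each was tight. The difference was -0.52 (-0.81 to -0.22). In CD45RBhigh cells the same gene differed by -1.42 (limma, adjusted p = 0.0934), and the difference between the subsets was 0.90 (0.48 to 1.32), which did not pass the interaction test after adjustment. Casp1 lies on the chromosome of Ccr2 but is not among its listed neighbours. Aim2, a DNA sensor of the same machinery, read 8.64 and 8.71 against 8.42 and 8.37, a difference of -0.28. The 13 tested of 22 listed inflammasome and interleukin 1 family genes had a median of -0.09 as deposited and -0.14 after centring, and -0.15 without wild-type replicate 1. The groups stood apart downwards in 3 (23.1%, against 11.8% of all genes) as deposited and in 5 after centring, against 21.3%. Among 24 tested of 29 listed apoptosis genes, Bcl2l11, which encodes the death-promoting protein BIM, differed by 0.56 (-0.14 to 1.26), and the list median was 0.02 as deposited and -0.03 after centring.

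Genes of lipid synthesis leaned upwards in CCR2-/- cells, and none passed the test. Of 24 tested cholesterol and fatty acid synthesis genes among 30 listed, 20 were above 0 (83.3%, against 57.4% of all genes). With both replicate numbers 15 were higher and 0 lower, against 32.7% and 19.6% of all genes. The groups stood apart upwards in only 1 (4.17%, against 18.7% of all genes) and downwards in 0 (against 11.8%) as deposited. After centring these counts were 1 and 3, against 10.4% and 21.3%. The list median was 0.18 as deposited and 0.13 after centring, and 0.21 and 0.09 for the replicate numbers. Without wild-type replicate 1 it was -0.02, a value that mixes genotype with the replicate number. Scd1, a desaturase that makes oleate, read 8.16 and 9.47 in wild type and 9.41 and 10.30 in CCR2-/-, a difference of 1.04 (0.03 to 2.05). Its groups overlapped, since replicate 2 was above replicate 1 in both genotypes. Fads2, another desaturase, read 10.40 and 11.05 against 11.03 and 11.42, a difference of 0.50.

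Glycolysis and hypoxia genes had 23 of 26 tested members above 0 as deposited (88.5%, against 57.4% of all genes) and 18 after centring (against 43.6%). The list median was 0.11 as deposited and 0.06 after centring. Without CCR2-/- replicate 2 the median was 0.02, and without CCR2-/- replicate 1 it was 0.22. Pdk1, which keeps pyruvate out of mitochondria, differed by 0.35 and Pfkp by 0.21. Genes of the amino acid and unfolded protein stress response had a median of 0.12 as deposited and 0.07 after centring over 31 of 32 listed, and -0.02 without wild-type replicate 1. Ddit4, a stress-induced inhibitor of mTORC1, read 8.65 and 8.69 against 9.05 and 9.17, a difference of 0.44 (0.09 to 0.79) without overlap. Cell cycle genes, 39 tested of 41, had a median of 0.08 and 0.04 under the same scalings, with Aurkb at 0.34. Their median was 0.02 without wild-type replicate 1. Oxidative phosphorylation genes turned with the scaling, from 0.04 to -0.01. Uqcrfs1, a subunit of respiratory complex III, read 7.09 and 7.10 against 7.40 and 7.59, a difference of 0.40.

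Interferon-response genes leaned upwards in sign and median in CCR2-/- CD45RBlow cells. Of 58 listed, 47 were tested, 36 of them above 0 as deposited (76.6%, against 57.4% of all genes) and 34 after centring (against 43.6%). The groups stood apart upwards in 8 (17.0%, against 18.7% of all genes) and downwards in 2 (4.26%, against 11.8%) as deposited. After centring these counts were 7 and 2, against 10.4% and 21.3%. The list median was 0.15 as deposited and 0.10 after centring. Without CCR2-/- replicate 2 the median was -0.01. Oas1b, of the family that senses double-stranded RNA, read 6.59 and 6.59 in wild type and 7.17 and 7.03 in CCR2-/-. It differed by 0.51 (0.15 to 0.88) without overlap and was the one member with an unadjusted p under 0.05. Slfn8 went the other way, at -0.48. Gbp10, an interferon-induced GTPase outside the list, read 7.93 and 8.41 against 8.93 and 9.25, a difference of 0.92 (-0.27 to 2.11). In CD45RBhigh cells the list median was -0.22, and the difference between the subsets was not tested for the list. MHC class I genes had a median of 0.01 as deposited and -0.04 after centring. H2-Q10 read 11.39 and 11.28 against 11.15 and 10.24, with a low value on CCR2-/- replicate 2.

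Memory and effector genes leaned downwards and naive genes slightly upwards. Of 26 tested memory and effector genes among 29 listed, 21 were below 0 and 5 above (19.2%, against 57.4% of all genes). With both numbers 16 were lower and 4 higher, against 19.6% and 32.7% of all genes. Their median was -0.12 as deposited and -0.17 after centring, and it was -0.25 without wild-type replicate 2 and -0.04 without wild-type replicate 1. Ahnak, a large scaffold protein, read 7.77 and 7.55 in wild type and 7.34 and 7.38 in CCR2-/-, a difference of -0.29, and Lgals3, a galectin, differed by -0.42. Cd44, the usual surface marker of memory cells, read 8.92 and 8.69 against 8.58 and 8.53, a difference of -0.24 (-0.56 to 0.08). Among 19 tested of 21 listed naive and quiescence genes the median was 0.05 as deposited and 0.004 after centring, with Btg1 at 0.28 and Foxo1 at 0.22. The median was 0.14 without CCR2-/- replicate 1. Ptprc, the gene of CD45, read 12.34 to 12.41 on the 4 arrays.

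**Figure D5:**
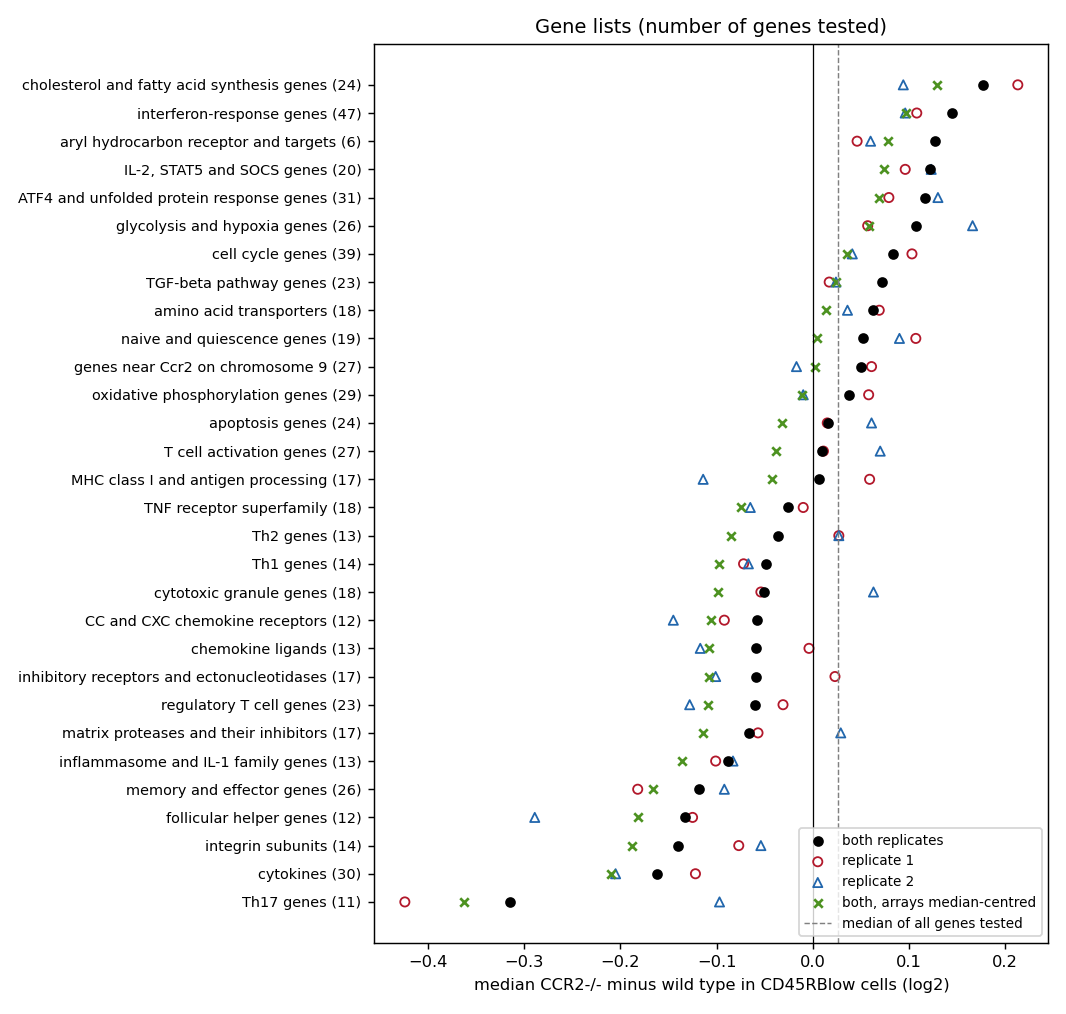
Median log2 difference between CCR2-/- and wild-type CD45RBlow cells (x axis) for 30 gene lists (y axis, number of tested genes in parentheses); black points use both replicates, red circles replicate 1, blue triangles replicate 2, green crosses arrays centred on their medians, and the dashed line is the median of all genes tested, 0.026. The Th17 list is lowest at -0.32 and the lipid synthesis list highest at 0.18, and centring moves each list down by 0.05 or less.

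T cell activation genes, 27 of 30 tested, had a median of 0.01 as deposited and -0.04 after centring, with Egr3 at 0.30 and Myc at 0.20. Genes around interleukin 2, STAT5 and SOCS had a median of 0.12 as deposited and 0.07 after centring, and 0.04 without CCR2-/- replicate 2. The groups stood apart upwards in 8 of the 20 tested (against 18.7% of all genes) and downwards in 4 (against 11.8%) as deposited. After centring these counts were 6 and 4, against 10.4% and 21.3% of all genes. Pim1 differed by 0.27 and Ccnd3 by 0.28. TNF receptor genes had a median of -0.03 as deposited and -0.075 after centring and held Tnfrsf26, which read 6.55 and 6.08 against 7.13 and 6.91, a difference of 0.71 (-0.12 to 1.53). Inhibitory receptors had a median of -0.06 as deposited and -0.11 after centring, with Lag3 at 0.27. Integrin subunits had a median of -0.14 as deposited and -0.19 after centring, and -0.02 without wild-type replicate 2. Of the 14 tested, 4 stood lower without overlap as deposited (28.6%, against 11.8% of all genes) and 4 after centring (against 21.3%). Itgav differed by -0.27 and Itgb3 by 0.27. TGF-beta pathway genes had a median of 0.07 as deposited and 0.02 after centring, with Smad1 at 0.30 and Acvr1b at 0.25. Amino acid transporters had medians of 0.06 and 0.01 under the same scalings, with Slc43a2 and Slc7a7 both at -0.23.

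Cytotoxic granule genes had a median of -0.05 as deposited and -0.10 after centring. Gzma, a granule protease, read 4.78 and 4.85 against 5.30 and 5.53, a difference of 0.60 (0.20 to 1.01), and Gzmk differed by -0.29. Both granzymes were dim. Among 6 tested of 11 genes around the aryl hydrocarbon receptor, Ahr differed by 0.39 (-0.41 to 1.20) and its target Tiparp by 0.37. Lrrk2, a kinase in the same list, read 8.27 and 7.96 against 7.81 and 6.90, a difference of -0.76 (-1.41 to -0.12).

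Other genes with separate groups were Reep6 (7.14 and 7.48 in wild type, 7.58 and 8.92 in CCR2-/-), Clec2i (6.10 and 6.77 against 7.05 and 7.40) and the ephrin Efna5 (4.77 and 4.99 against 5.36 and 5.87) upwards. Downwards they were Sytl3 (7.06 and 6.48 against 6.15 and 5.89), which has a part in vesicle release, Unc13b (5.97 and 5.38 against 4.92 and 4.98), Klf8, Idi2 and Tmem176a. The intervals of Klf8, Idi2 and Tmem176a crossed 0, at -0.74 (-1.65 to 0.18), -0.69 (-2.03 to 0.65) and -0.67 (-1.46 to 0.12).

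Markers of other cell types are given as measured values. Of 10 tested B cell markers 0 stood apart as deposited (against 30.5% of all genes), and 2 stood lower after centring (against 21.3%). The B cell median was -0.02 as deposited and -0.07 after centring, with Ighm at -0.10 and Cd37 at 0.15. Of 6 tested NK cell markers 0 stood apart as deposited (against 30.5% of all genes), and 2 stood lower after centring (against 21.3%). Their median was -0.07 as deposited and -0.12 after centring, with Nkg7 and Eomes at -0.12. Of 8 CD8 T cell markers 2 stood higher (against 18.7% of all genes) and 2 lower (against 11.8%) as deposited. After centring 2 stood higher and 3 lower, against 10.4% and 21.3% of all genes. The CD8 median was 0.01 as deposited and -0.04 after centring, with Klrc1 at 0.23. Of 7 macrophage and monocyte markers 1 stood higher (14.3%, against 18.7% of all genes), with a median of 0.00 as deposited and -0.05 after centring. Vcam1 differed by -0.11. Of 8 dendritic cell markers 3 stood higher as deposited (37.5%, against 18.7% of all genes) but only 1 after centring (against 10.4%). Of these markers 1 stood lower under both scalings, and their median was 0.08 as deposited and 0.04 after centring. Among them, H2-Ab1, an MHC class II chain, read 6.81 and 7.15 against 7.42 and 7.73, a difference of 0.60 (-0.46 to 1.65), and Naaa differed by 0.27. The 2 tested neutrophil markers, Ly6g and S100a9, were dim and both stood higher in CCR2-/- without overlap, by 0.36 and 0.26; their part in the results was not tested. In bulk RNA, fewer cells of a kind and less transcript in each cannot be told apart. The 12 tested CD4 T cell markers had a median of -0.06 as deposited and -0.11 after centring, with Cd3e at 0.24, Zap70 at -0.18 and Cd4 at 0.04.

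Whether the genotype difference in CD45RBlow cells was another one than in CD45RBhigh cells was tested as an interaction over all 8 arrays. Limma called 0 of 13508 genes (0.0%), with 160 at an unadjusted p under 0.05 (1.18%) and a lowest adjusted p of 0.9998. With the replicate block the counts were 0 and 288 (2.13%). The unadjusted count ran from 71 without wild-type CD45RBlow replicate 1 to 617 without CCR2-/- CD45RBhigh replicate 2. The smallest p values belonged to Casp1, whose genotype difference was smaller in CD45RBlow cells, and to Timp1, with -1.37 against -0.07 (interaction -1.29, -1.90 to -0.68). Zfp382, Rex2 and Speer4a followed, with differences of 0.37, 0.02 and -0.43 in CD45RBlow and -0.44, 0.59 and 0.26 in CD45RBhigh cells. Il4, at 0.85 and -0.22, and Gata3, at 0.20 and -0.43, had interactions of 1.06 (0.28 to 1.85) and 0.63 (0.10 to 1.16).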

How the data were processed

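The authors deposited log2 values for 41034 transcript clusters (probe sets). The submitters' processing notes name RMA and Partek, without version or settings. They were used as deposited. Values ran from 3.07 to 13.92 and array medians from 4.92 to 5.05. The number of arrays, not a read depth, limits the precision, and the median standard error of a log2 difference was 0.145. Labelled cDNA came from 200 ng of RNA, per the labels' protocols.

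Probe annotation of the platform gave the names: 23521 clusters had 1 gene symbol, 1814 several (left out) and 15699 none. The brightest cluster by its mean over the 8 arrays stood for each gene, which left 22180 genes, of which 13508 reached the 40th percentile of an array on 2 or more arrays and were tested. With R 4.3.3, limma 3.58.1 fitted 4 group means to the 8 arrays (4 residual and 3.36 prior degrees of freedom). Its moderated, two-sided p-values had a Benjamini-Hochberg adjustment across the tested genes, and 0.05 was the threshold. Scripts were tested on simulated arrays.

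Between every 2 groups the difference of replicate 2 from replicate 1 correlated at 0.109 to 0.531 across genes, each over 0.1. Samples of 1 number were therefore set against each other where differences are given by replicate number. What the number stands for is not in the labels. The main fit had no term for it, so its p-values and intervals do not use this pairing. A fit with the number as a block was an alternative. The others were the CD45RBlow arrays alone, a variance trend, robust variances, array weights, no filter, a filter at the 60th percentile, the mean of a gene's clusters, median-centred arrays and leaving out each array.

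Genes were named by rule: the 10 smallest p values, the 10 largest differences each way among genes whose groups did not overlap and whose sign was the same for both numbers, genes called with the block (0), the 2 smallest p values of each list, the 5 smallest interaction p values, and a fixed set of T cell genes. Gene models without a usual symbol and small RNA, olfactory and vomeronasal genes were not named by the rule. Members and lists were chosen with earlier results of these data known, so lists are described by counts and medians without a set test. Of the genes listed as near Ccr2, 1 that RefSeq (GRCm38.p6) places on another chromosome was left out. The 4 sex-linked, 2 gamma-delta and NKT cell (Zbtb16 at 0.24, Sox13 at -0.05), 2 platelet (Itga2b at -0.16) and 0 erythroid markers tested were too few for a summary.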

Additional observations from a re-analysis of the deposited data

How the results depend on the processing

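No gene was called at an adjusted limma p under 0.05, for CCR2-/- against wild-type CD45RBlow cells or for the interaction, in any of the 17 alternatives to the CD45RBlow comparison, the replicate block among them. At an unadjusted p under 0.05 the CD45RBlow count of 298 became 587 with the replicate block, 562 of 22180 genes without the filter, 169 of 9403 genes at the 60th percentile and 98 to 1240 as single arrays were left out, and the interaction count of 160 became 288 with the block, 340 without the filter and 103 at the 60th percentile. The block changed no other call. Where a group was left with 1 array, that array was assumed to vary like the other groups. Of 1894 values of the 113 named genes under the alternatives, 1858 kept their direction and 36 reversed, in 22 genes. Centring the arrays turned Rex2 to -0.029, Cd4 to -0.007 and Il2ra to -0.038. The other 33 reversals came from leaving out single arrays. Without 1 CD45RBlow array the replicate numbers are no longer balanced between the genotypes, so such a value mixes genotype with replicate number. Over these fits the log2 difference ran as follows. Among T helper and regulatory genes it ran for Foxp3 from -0.916 to 0.325, Il10 from -1.398 to 0.041, Maf from -0.35 to 0.083, Itgb8 from -0.731 to 0.395, Il2ra from -0.012 to 0.032, Il17a from -1.479 to 0.116 and Il22 from -0.301 to 0.695. It also ran for Tbx21 from -0.091 to 0.06, Bcl6 from -0.278 to 0.021, Ccl20 from -1.916 to 0.13, Ccr4 from -0.13 to 0.057, Ccr7 from -0.226 to 0.195, Ccr8 from -0.021 to 0.141 and Cxcr6 from -0.815 to 0.715. The last were Cd4 from -0.059 to 0.142, Rex2 from -0.055 to 0.093, Itgb3 from -0.008 to 0.541, Vcam1 from -0.223 to 0.004, Cd37 from -0.039 to 0.346, Ighm from -0.216 to 0.023, Sox13 from -0.251 to 0.145 and Uty from -0.806 to 0.398. Of 678 list medians under the alternatives 564 moved by less than the spread between replicates. With 2 arrays in a group, a difference of the median gene had to exceed 0.339 log2 units for its 95% interval to leave 0. The cause of these shifts was not tested.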
